A study of Mus musculus with 110 samples.

Results

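Interscapular brown adipose tissue (iBAT) of mice on 2 diets and at 2 temperatures was examined for genes whose response to cold depended on the diet, that is, for the diet by temperature interaction. All 27 iBAT libraries of the 110 libraries of the series were used: 6 of Ctrl_RT, 7 of Ctrl_CE, 7 of MetR_RT and 7 of MetR_CE, each from another mouse. The mice were adult wild-type C57BL/6N males, housed singly. Ctrl mice ate a diet with 0.86% methionine by the labels and MetR mice one with 0.12%, and both diets lacked cysteine, so the controls also ate no cysteine. Both diets were fed for 7 days at 22 °C (RT), and the CE mice then spent 24 h at 4 °C. Tissue of the CE mice was thus taken 24 h further into the experiment, which the design cannot tell apart from the cold. The interaction is the cold effect on MetR (MetR_CE minus MetR_RT) minus the cold effect on Ctrl (Ctrl_CE minus Ctrl_RT), in log2. It is equally the diet effect at 4 °C minus the diet effect at 22 °C. A value of 0 means that the effects of diet and cold multiply.

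Brown adipocytes burn fatty acids and glucose to make heat. Cold makes sympathetic nerves release noradrenaline onto their beta-adrenergic receptors, which raises cyclic AMP, releases fatty acids from lipid droplets and opens the proton leak through UCP1 in the inner mitochondrial membrane. Restriction of methionine is known to raise energy expenditure, to raise the hormone FGF21 from the liver and to call on the integrated stress response, in which ATF4 turns on genes of amino acid supply.

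Total counts per library ran from 12672686 to 31232349, and no 2 libraries of a group held the same counts. All 10 brown adipocyte markers were detected, with a summed level of 8830 to 18000 normalized CPM (counts scaled to library size with TMM factors, the scale of all levels here). The summed level of 14 skeletal muscle markers exceeded 1000 CPM in 2 of 6 Ctrl_RT and 4 of 7 Ctrl_CE libraries and in none of the 14 MetR libraries, where it stayed at 870 or below. The first principal component of the 500 most variable genes held 58.5% of the variance, and 11 of its 25 leading genes were muscle markers. For 3 libraries (MetR_RT 1, Ctrl_CE 1 and MetR_CE 1) a treatment tag names another group than the title, and titles were used. In the library titled Ctrl_CE 1 and tagged as MetR_RT, Dio2 stood at 328 CPM, within the 201 to 474 of the other Ctrl_CE libraries and above the 25.6 to 53.6 of the other MetR_RT libraries. Dio2 and Ucp1 did not place the other tagged libraries. Dio2 was at 20.8 in MetR_RT 1 and at 181 in MetR_CE 1, below the other libraries of both the titled and the tagged group. Ucp1, at 7880 and 12400, was within both. On the second principal component MetR_RT 1 stood at -12.4, with the group of its title. The other MetR_RT libraries were at -13.3 to -10.1 there, and those of Ctrl_RT at -20.7 to -16.3. MetR_CE 1 stood at 7.4, below every other CE library, and was not placed. Ctrl_CE 5, which the study set aside, was kept here and left out in a repeat. Bulk RNA does not separate fewer cells of a type from less RNA per cell.

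The response to cold differed between the diets in a small set of genes, 110 of 23993 tested (0.458%). None of 30 thermogenesis genes was among them, which at that share says little about a list of 30. The same holds for each gene list and marker list below in which no interaction was called. Cold lowered Adcy5, which makes cyclic AMP, 4.35-fold on Ctrl, while its level on MetR differed 1.14-fold between temperatures without a call. Cold raised Cpt1a, which admits fatty acids to mitochondria, 3.43-fold on Ctrl and 1.73-fold on MetR. Ucp1 rose 1.81-fold on Ctrl and 1.61-fold on MetR, with no called interaction.

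A gene was called when its adjusted p (edgeR quasi-likelihood test with Benjamini-Hochberg adjustment over 23993 genes) was under 0.05 and its fold at least 1.5 in either direction. The interaction was called in 110 genes (0.458% of those tested), of which 72 were positive (0.300%) and 38 negative (0.158%). An unadjusted p under 0.05 was seen in 3011 genes, and the median interaction of all genes was 0.031. Cold itself reached many more genes, with 1190 higher (4.96%) and 2381 lower (9.92%) on Ctrl, and 812 higher (3.38%) and 1219 lower (5.08%) on MetR. Diet changed fewer, with 128 higher (0.533%) and 474 lower (1.98%) on MetR at 22 °C, and 115 higher (0.479%) and 290 lower (1.21%) at 4 °C.

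By their point estimates, most of the 110 genes had a weaker cold response on MetR. Of the 72 positive genes, 68 were lower in the cold on Ctrl, and the cold effect was smaller on MetR in 41 and of opposite sign in 27 of them. The remaining 4 were higher in the cold on Ctrl and more so on MetR. All 38 negative genes were higher in the cold on Ctrl, with a smaller rise on MetR in 31 and a value of opposite sign in 7. The median cold effect of the positive genes was -1.28 on Ctrl and -0.13 on MetR, and that of the negative genes 1.42 on Ctrl and 0.67 on MetR. Since the same contrast chose the genes, these shapes describe the calls and are no separate result.

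The diet effects of the same genes are given as a description. The interaction that chose the genes is equally the diet effect at 4 °C minus that at 22 °C. A higher diet effect at 4 °C than at 22 °C in positive genes, and the reverse in negative ones, is thus built in. The counts and medians below describe the calls and are no separate result. Among the positive genes, 37 of 72 were called lower on MetR at 22 °C and 18 were called higher on MetR at 4 °C. Among the negative genes, 21 of 38 were called higher on MetR at 22 °C and 6 were called lower on MetR at 4 °C. The median diet effect of the positive genes was -0.657 at 22 °C and 0.314 at 4 °C, against 0.677 and -0.197 for the negative genes. The cold effect on Ctrl and the diet effect at 22 °C share the 6 Ctrl_RT libraries, so a likeness between them is in part built in, and each is given with its own values.

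**Figure D1:**
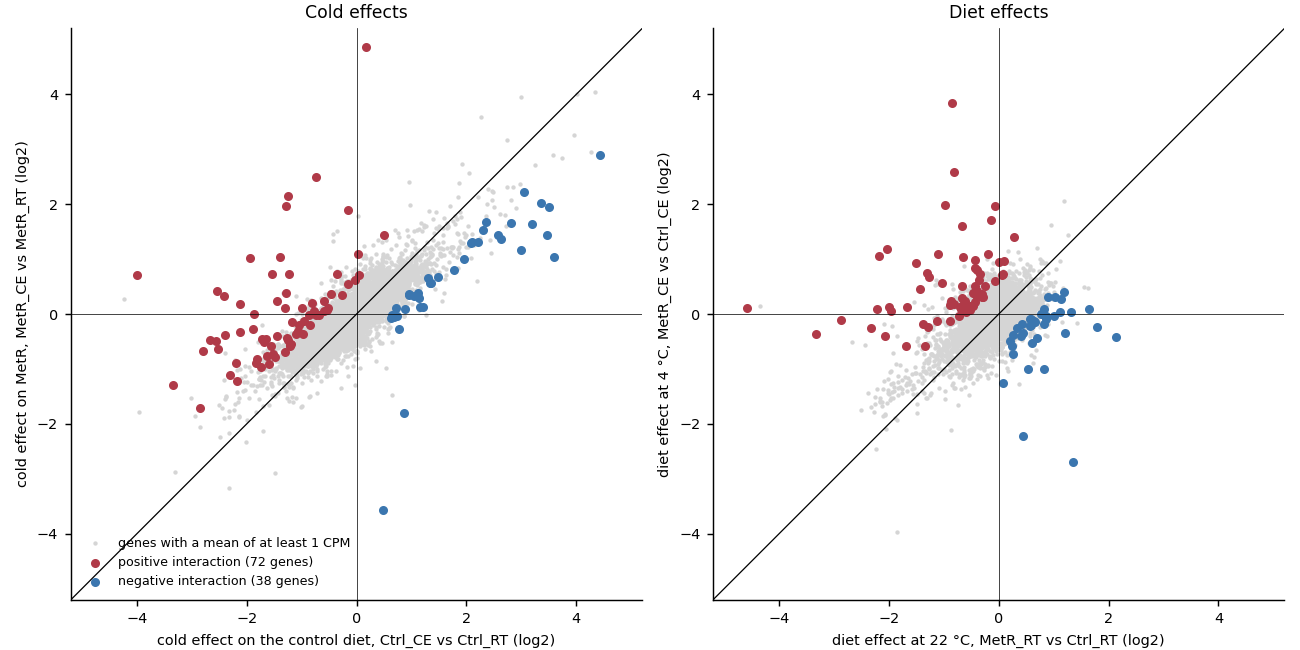
Log2 cold effect on Ctrl (x) against that on MetR (y), left, and log2 diet effect at 22 °C (x) against that at 4 °C (y), right; each point is a gene with a mean of at least 1 CPM (grey) or with a called interaction (red, 72 positive; blue, 38 negative). Red points lie above and blue points below the diagonal of equal effects, as the rule for calls requires.

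Ucp1 and Ppargc1a rose in the cold on both diets, with no called interaction. Ucp1, the proton leak of brown fat, was at 5820 to 8450 CPM in Ctrl_RT (median 6910) and 11700 to 14100 in Ctrl_CE (12200), and at 7290 to 9650 in MetR_RT (8160) and 12100 to 14800 in MetR_CE (13700). No CE library overlapped with an RT library of the same diet. The cold effect was 0.86 ± 0.08 (log2 ± SE) on Ctrl and 0.68 ± 0.07 on MetR, and the interaction was -0.17 with a 95% confidence interval from -0.39 to 0.04 (adjusted p = 0.52).

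Ppargc1a, the coactivator of mitochondrial genes, rose from a median of 42.8 CPM in Ctrl_RT to 215 in Ctrl_CE and from 40.7 in MetR_RT to 177 in MetR_CE. Its interaction was -0.12 ± 0.27 (adjusted p = 0.915). Dio2, which activates thyroid hormone, was at 44.8 to 124 CPM (median 70.7) in Ctrl_RT, 20.8 to 53.6 (47.5) in MetR_RT, 201 to 474 (284.9) in Ctrl_CE and 181 to 333 (263.6) in MetR_CE. It was called lower on MetR at 22 °C (log2 -0.98 ± 0.24, adjusted p = 0.0099), and its larger cold effect on MetR (2.74 against 1.92) was not called as an interaction (0.82 ± 0.33, adjusted p = 0.259). With groups set by the treatment tag the interaction of Dio2 was -0.24.

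Among 30 genes of thermogenesis tested, 12 were called higher and 2 lower in the cold on Ctrl, 10 were called higher and 1 lower on MetR, and none had a called interaction (median -0.02). By the same edgeR test, the unadjusted p of the interaction was under 0.05 in 10 of the 30, against 3011 of all 23993 genes. Bmp8b, a secreted factor of activated brown fat, had medians of 6.7 and 55.4 CPM in Ctrl_RT and Ctrl_CE, and of 12.2 and 53.8 in MetR_RT and MetR_CE. Its interaction was -0.73 ± 0.45 (adjusted p = 0.523). Smaller interactions passed the p threshold and not the fold threshold for Atp2a2, the calcium pump of the endoplasmic reticulum (-0.39 ± 0.09, adjusted p = 0.0327), and for Letmd1, a mitochondrial protein that brown fat needs in the cold (-0.26 ± 0.06, adjusted p = 0.0335). In the respiratory chain none of 21 genes was called (median -0.004), and in lipolysis and lipid uptake none of 26 (median 0.01). With 0.458% of all genes called, no call in lists of this size says little.

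Adcy5, an adenylyl cyclase that makes cyclic AMP, had the smallest adjusted p of all genes. Its level was 10 to 19.5 CPM (median 15.9) in Ctrl_RT, 2.88 to 4.44 (3.71) in Ctrl_CE, 2.68 to 4.65 (3.17) in MetR_RT and 1.83 to 6.6 (2.95) in MetR_CE. All Ctrl_RT libraries stood above those of every other group, and the other groups overlapped. Cold lowered it by -2.12 ± 0.21 on Ctrl and not on MetR (0.19 ± 0.21), diet changed it by -2.22 ± 0.21 at 22 °C and by 0.09 ± 0.21 at 4 °C, and the interaction was 2.31 ± 0.30 (adjusted p = 0.000243).

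Hcar2 and Hcar1, receptors for metabolites, also had positive interactions. Hcar2, the receptor for beta-hydroxybutyrate and niacin that restrains lipolysis, was at 2.66 to 7.39 CPM (6.66) in Ctrl_RT, 0.68 to 1.67 (1.14) in Ctrl_CE, 1 to 2.55 (1.4) in MetR_RT and 0.726 to 1.61 (1.27) in MetR_CE. Hcar1, the lactate receptor of adipocytes, was at 19.1 to 43 CPM (38.6), 5.21 to 9.35 (7.37), 10.6 to 22.5 (12) and 4.1 to 8.54 (6.21) in the same order. For Hcar2 the Ctrl_RT libraries lay above all others, whereas for Hcar1 cold lowered the level on both diets and Ctrl_RT and MetR_RT overlapped. The interactions were 2.01 ± 0.35 (adjusted p = 0.0045) and 1.19 ± 0.26 (adjusted p = 0.0213), with a cold effect on Ctrl of -2.40 and -2.31 and on MetR of -0.39 and -1.11. Of 23 adipocyte receptors for metabolites and hormones tested, these 2 were called, both positive, with a median of 0.32 over the list.

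Pde1c had a negative interaction. Pde1c, a calcium-dependent phosphodiesterase that degrades cyclic AMP and cyclic GMP, was at 0.157 to 0.881 CPM (0.5) in Ctrl_RT, 3.08 to 5 (3.53) in Ctrl_CE, 0.578 to 1.11 (0.802) in MetR_RT and 1.05 to 2.55 (1.92) in MetR_CE. All Ctrl_CE libraries exceeded all MetR_CE libraries. The cold effect of 2.99 ± 0.26 on Ctrl and of 1.17 ± 0.25 on MetR gave an interaction of -1.82 ± 0.37 (adjusted p = 0.0113), and without the 6 libraries with muscle markers over 1000 CPM the call was lost (-1.51, adjusted p = 0.0786). Those 6 were all Ctrl libraries, and Pde1c stayed called with muscle markers as a covariate in all 27.

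The natriuretic peptide receptors split. Npr3, the receptor that clears natriuretic peptides, rose in the cold on both diets, from a median of 54.3 to 373 CPM on Ctrl and from 109 to 270 on MetR, with an interaction of -1.13 ± 0.26 (adjusted p = 0.0305). Npr1, which makes cyclic GMP, was at 67 to 129 CPM (83.8) in Ctrl_RT and at medians of 62.4, 63.8 and 66.3 in Ctrl_CE, MetR_RT and MetR_CE, with an interaction of 0.63 ± 0.15 (adjusted p = 0.0352) and overlapping groups except Ctrl_RT and MetR_RT. Of 34 genes of adrenergic and cyclic nucleotide signalling tested, 2 were called positive and 2 negative, with a median of 0.05. The call of Npr1 was lost in 13 of 27 repeats that each left out 1 library, in which its interaction ran from 0.49 to 0.70. That of Npr3 was lost without Ctrl_RT 6, MetR_RT 3, MetR_RT 6 or MetR_CE 1, with values from -1.29 to -1.02 over the 27 repeats, and without the 6 muscle-rich libraries (-0.84, adjusted p = 0.222).

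**Figure D2:**
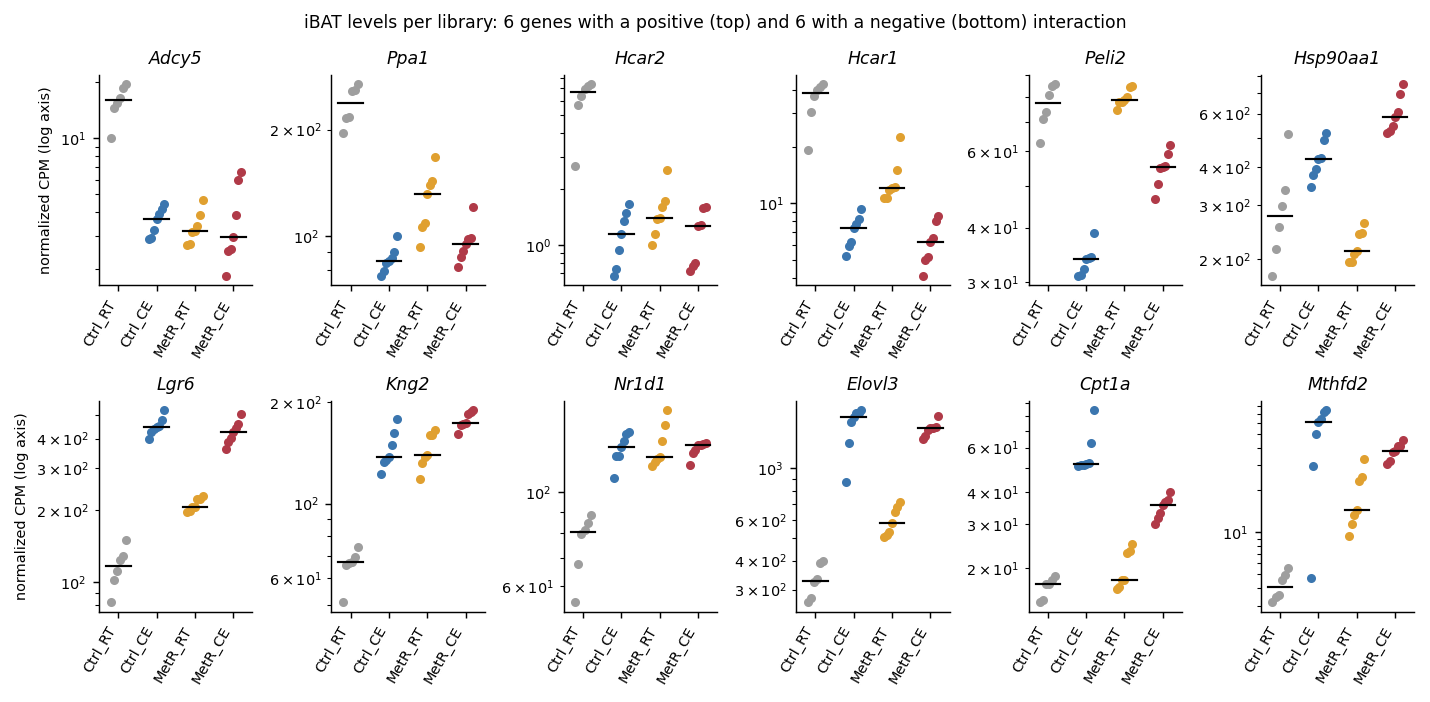
Normalized CPM (log axis) of 12 genes with a called interaction in the 27 iBAT libraries by group; each point is a library and each bar the group's median. In Adcy5 and Hcar2 the Ctrl_RT points sit above the other groups, and in Cpt1a and Peli2 the MetR_CE points sit between Ctrl_CE and the RT groups.

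Lgr6, Kng2 and Ppa1 came next in adjusted p. Lgr6, a receptor for R-spondins in Wnt signalling, was at 82.6 to 151 CPM (118) in Ctrl_RT, 399 to 525 (448) in Ctrl_CE, 197 to 230 (207) in MetR_RT and 363 to 508 (426) in MetR_CE. The MetR_RT libraries stood between Ctrl_RT and Ctrl_CE without overlap, and the CE groups overlapped. Its cold effect was 1.95 ± 0.10 on Ctrl and 1.01 ± 0.09 on MetR, its diet effect 0.86 ± 0.09 at 22 °C and -0.08 ± 0.09 at 4 °C, and the interaction -0.94 ± 0.13 (adjusted p = 0.000279).

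Ppa1, the cytosolic pyrophosphatase, was at 195 to 268.5 CPM (237) in Ctrl_RT, 77 to 100 (85) in Ctrl_CE, 93.1 to 167 (131) in MetR_RT and 81.5 to 121 (95) in MetR_CE. All Ctrl_RT libraries were higher than those of the other groups. Cold changed it by -1.45 ± 0.11 on Ctrl and by -0.40 ± 0.10 on MetR, and the interaction was 1.05 ± 0.15 (adjusted p = 0.000279).

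Several abundant adipocyte genes were high in Ctrl_RT alone. Car3, a carbonic anhydrase of adipocytes that slow muscle also holds, was at 533 to 1390 CPM (613) in Ctrl_RT, 76.8 to 231 (116) in Ctrl_CE, 114 to 224 (143) in MetR_RT and 43.8 to 241 (87.1) in MetR_CE. Steap4, a metalloreductase of adipocytes, was at 103 to 203 CPM (139), 36.1 to 54.8 (37.3), 50 to 81.6 (65.8) and 28.9 to 49.9 (36.9). The Ctrl_RT libraries lay above all others for both genes, and for Steap4 cold lowered the level on MetR too. The interaction was 2.07 ± 0.43 for Car3 (adjusted p = 0.0149) and 1.0 ± 0.19 for Steap4 (adjusted p = 0.0085). Without the 6 libraries with muscle markers over 1000 CPM, the value of Car3 was 2.20 and the call was lost (adjusted p = 0.0628, with 21 libraries left). With the shrinkage of apeglm its value was 0.08.

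B3galt2, a galactosyltransferase, had the largest fall in the cold on Ctrl among the genes named by p, from a median of 33 CPM in Ctrl_RT to 3.3 in Ctrl_CE, and from 12 in MetR_RT to 5.09 in MetR_CE (interaction 2.05 ± 0.37, adjusted p = 0.0057). Tlr5, the receptor for bacterial flagellin, went from 10.8 to 2.03 CPM on Ctrl and from 4.7 to 3.37 on MetR (interaction 1.9 ± 0.35, adjusted p = 0.0069). Sulf2, an extracellular sulfatase of heparan sulfate, went from 69.4 to 20.8 and from 41.5 to 21.1 (0.77 ± 0.15, adjusted p = 0.0108). Each of the 3 genes was called lower on MetR than on Ctrl at 22 °C and not at 4 °C. Soga1, a suppressor of autophagy, had a smaller interaction of 0.61 ± 0.12 (adjusted p = 0.009), whose call was lost in 7 of 27 repeats without 1 library, with values from 0.56 to 0.66.

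For another set of genes the diets parted in the cold. Peli2, a ubiquitin ligase of innate immune signalling, was at 62.8 to 85.6 CPM (77.3) in Ctrl_RT and 74.6 to 84.6 (78.6) in MetR_RT, and at 31 to 38.8 (33.8) in Ctrl_CE and 46.5 to 61.9 (55.3) in MetR_CE. Acss3, a mitochondrial enzyme that activates short-chain fatty acids, was at 103 to 146 CPM (132), 118 to 152 (136), 30.2 to 66 (38.2) and 69.9 to 92.8 (77.8) in the same order. For both genes the RT groups overlapped, and every MetR_CE library stood above every Ctrl_CE library and below every MetR_RT library. The diet effect at 4 °C was 0.71 ± 0.07 for Peli2 and 0.96 ± 0.12 for Acss3, against 0.06 ± 0.07 and 0.09 ± 0.12 at 22 °C. Their interactions were 0.65 ± 0.09 (adjusted p = 0.000566) and 0.86 ± 0.16 (adjusted p = 0.0085), and that of Acss3 was not called without the 6 muscle-rich libraries (0.70, adjusted p = 0.0625).

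Cpt1a, the liver-type carnitine palmitoyltransferase that admits fatty acids to mitochondria, showed the mirror image. It was at 14.7 to 18.6 CPM (17.3) in Ctrl_RT, 16.6 to 24.9 (18) in MetR_RT, 50.8 to 84.2 (51.7) in Ctrl_CE and 29.9 to 40.1 (35.6) in MetR_CE. The CE groups did not overlap, while the RT groups did. Cold raised it by 1.78 ± 0.12 on Ctrl and by 0.79 ± 0.11 on MetR, with an interaction of -0.98 ± 0.16 (adjusted p = 0.0015). Cpt1b, the muscle-type form, had an interaction of -0.01 ± 0.08 (adjusted p = 0.971), with medians of 64.7 and 89.7 CPM at RT and CE on Ctrl and of 64.1 and 90 on MetR. Acox2, a peroxisomal oxidase of branched chains and bile acid precursors, was lowest in Ctrl_RT (1.76 to 3.75 CPM, median 2.68) and had medians of 4.17, 5.43 and 4.37 in Ctrl_CE, MetR_RT and MetR_CE (-1.04 ± 0.23, adjusted p = 0.0251; adjusted p = 0.076 without the 6 muscle-rich libraries). Of 31 genes of fatty acid oxidation and ketone metabolism, Cpt1a and Acox2 were called, both negative, and the median was -0.02.

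Elovl3, which elongates very long-chain fatty acids and is a classic cold gene of brown fat, was at a median of 328 CPM and at most 397.5 in Ctrl_RT, 505 to 714 (584) in MetR_RT, 877 to 1780 (1660) in Ctrl_CE and 1340 to 1690 (1490) in MetR_CE. MetR_RT exceeded Ctrl_RT in every library, and the CE groups overlapped. The cold effect of 2.20 ± 0.13 on Ctrl and 1.31 ± 0.12 on MetR gave an interaction of -0.89 ± 0.17 (adjusted p = 0.0085). Among 28 genes of fatty acid synthesis Elovl3 was the 1 called member, and 7 of the 28 had a positive point estimate (median -0.2). Elovl6, which makes stearate from palmitate, passed the p threshold only (-0.48 ± 0.10, adjusted p = 0.0196). Fasn, the fatty acid synthase, stood at medians of 47700 CPM in Ctrl_RT and 61100 in MetR_RT and of 34100 in Ctrl_CE and 43900 in MetR_CE, with an interaction of -0.06 ± 0.12 (adjusted p = 0.892). Scd1, the desaturase, had an interaction of -0.26 ± 0.29 (adjusted p = 0.778).

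In cholesterol synthesis, 2 of 26 genes were called, in opposite directions, with a median of -0.225 over the list. Fdft1, squalene synthase, was at 73.8 to 139 CPM (106) in Ctrl_RT, 24.5 to 47.1 (34.7) in Ctrl_CE, 54.7 to 110 (87.2) in MetR_RT and 51.7 to 66.4 (56.6) in MetR_CE. All MetR_CE libraries lay above all Ctrl_CE libraries. Its interaction was 0.99 ± 0.21 (adjusted p = 0.0163), and 0.95 without a call when the 6 muscle-rich libraries were left out (adjusted p = 0.0608). Hsd17b7, a later enzyme of the same pathway, rose in the cold from a median of 11.1 to 58.2 CPM on Ctrl and from 15.7 to 50.4 on MetR, with an interaction of -0.67 ± 0.16 (adjusted p = 0.0351), and its call was lost in 10 of 27 repeats without 1 library (-0.74 to -0.60). Hmgcs1, at the pathway's start, was not called (-0.17 ± 0.13, adjusted p = 0.617).

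Among the genes of amino acid supply, Mthfd2 and Asns were called. Mthfd2, a mitochondrial enzyme of folate one-carbon metabolism, was at 3.18 to 5.56 CPM (4.1) in Ctrl_RT, 9.48 to 33.5 (14.4) in MetR_RT, 4.7 to 73.9 (61.1) in Ctrl_CE and 30.6 to 45.6 (38.1) in MetR_CE. The Ctrl_CE range was stretched by replicate 3 at 4.7 CPM, a library that was also the lowest Ctrl_CE library for the serine synthesis genes Psat1 (3.38 CPM) and Phgdh (1.53 CPM). Cold raised Mthfd2 by 3.59 ± 0.39 on Ctrl (12-fold) and by 1.03 ± 0.32 on MetR (2.04-fold), MetR raised it by 2.13 ± 0.38 at 22 °C, and the interaction was -2.56 ± 0.49 (adjusted p = 0.0085). It stayed called without any 1 library, with values from -2.76 to -2.35, and lost its call with limma voom (-2.10, adjusted p = 0.195).

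Asns, asparagine synthetase and an ATF4 target, was at 38.9 to 54.7 CPM (45.1) in Ctrl_RT, 44.8 to 89.7 (77.6) in Ctrl_CE, 59.7 to 77.6 (66.9) in MetR_RT and 60.2 to 80.2 (64.6) in MetR_CE. Ctrl_RT lay below both MetR groups, and Ctrl_CE overlapped with all other groups. The interaction of -0.67 ± 0.16 (adjusted p = 0.0352) was not called in 13 of 27 repeats without 1 library, where it ran from -0.76 to -0.61. Got1, the cytosolic aspartate aminotransferase, rose in the cold from a median of 29.5 to 141 CPM on Ctrl and from 44.8 to 127 on MetR, with an interaction of -0.76 ± 0.17 (adjusted p = 0.0219).

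Asns was 1 of 25 genes of the integrated stress response to be called (median of the list 0.08), and Mthfd2 1 of 18 of serine and folate metabolism (median -0.12). Fgf21 and Gdf15, hormones of the stress response, rose in the cold on both diets and were not called as interactions (-0.26 ± 0.34, adjusted p = 0.83, and -0.90 ± 0.55, adjusted p = 0.524). Their levels were low, with Ctrl_CE medians of 3.03 and 2.63 CPM and Ctrl_RT medians of 0.573 and 0.143 CPM. Psat1 (-0.79 ± 0.44, adjusted p = 0.477) and Phgdh (-0.28 ± 0.41, adjusted p = 0.847) were not called. No gene of 24 of the methionine cycle and transsulfuration was called (median 0.22). Nnmt, which methylates nicotinamide with S-adenosylmethionine, was at medians of 8.23 and 64.3 CPM on Ctrl and of 2.45 and 22.5 on MetR at RT and CE. Its cold effects of 2.75 ± 0.32 and 3.16 ± 0.35 and its diet effects of -1.99 ± 0.36 and -1.57 ± 0.29 were all called, whereas the interaction was not (0.42 ± 0.46, adjusted p = 0.78). Amino acid transporters had no called member among 15 (median -0.06).

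The 36 genes of glucose metabolism had a median interaction of -0.139, and among them Pck1 was called positive and Got1 negative. Pck1, which makes glycerol for triglycerides in fat, was at 2390 to 4740 CPM (3600) in Ctrl_RT and at medians of 2380, 2680 and 3080 in Ctrl_CE, MetR_RT and MetR_CE, with all groups overlapping. Its interaction of 0.82 ± 0.20 (adjusted p = 0.0351) was not called in 12 of 27 repeats without 1 library (0.73 to 0.92).

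Nr1d1, the clock repressor REV-ERB alpha, was at 55 to 88.2 CPM (80.6) in Ctrl_RT, 108 to 139 (128) in Ctrl_CE, 115 to 156 (121) in MetR_RT and 116 to 131 (129) in MetR_CE. Every Ctrl_RT library was below every library of the other groups, which overlapped. Its interaction was -0.77 ± 0.12 (adjusted p = 0.000823), with a cold effect of 0.74 ± 0.08 on Ctrl and of -0.03 ± 0.08 on MetR. The gene overlaps Thra on the opposite strand, and no strand setting of the counting is given in the sources used here. Dbp, a clock output factor, was also lowest in Ctrl_RT by median, going from 4.83 to 24.8 CPM on Ctrl and from 14.3 to 22.2 on MetR, with a larger interaction with a larger error (-1.59 ± 0.45, adjusted p = 0.0816). Nr1d1 was the 1 called gene of 19 in the clock list (median -0.09). The list also held Npas2, an activator of the clock, at 1.15 ± 0.34 (adjusted p = 0.0961), and Per2 at -0.40 ± 0.50 (adjusted p = 0.816). The time of day of tissue collection was not analysed here.

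Of 21 secreted factors, Igf1 and Wnt11 were called, both positive, and the median was 0.07. Igf1, the growth factor, was at 10.8 to 20.6 CPM (12.3) in Ctrl_RT, 4.99 to 11 (6.37) in Ctrl_CE, 3.17 to 5.41 (3.93) in MetR_RT and 3.31 to 6.5 (3.68) in MetR_CE. Wnt11, a Wnt ligand, was at 9.87 to 14.3 (11.1), 4.07 to 7.92 (4.76), 3.59 to 5.36 (4.41) and 2.7 to 4.25 (3.18). Ctrl_RT was the highest group by median for both, with an overlap into Ctrl_CE for Igf1. Their interactions, 1.11 ± 0.27 (adjusted p = 0.0362) and 0.76 ± 0.19 (adjusted p = 0.0469), lost their calls in 12 and 20 of 27 repeats without 1 library, with values from 0.94 to 1.28 and from 0.68 to 0.89. Lep, leptin, was not called (-0.26 ± 0.52, adjusted p = 0.9).

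The macrophage marker sum, with 8 of 8 markers detected, was 93.1 to 153 CPM in Ctrl_RT, 58.9 to 139 in Ctrl_CE, 47.2 to 88.9 in MetR_RT and 37.8 to 62.5 in MetR_CE. It moved in the same order of group medians as Igf1, a gene that macrophages also express. Its part in the result for Igf1 was not tested. No marker of macrophages or of any other cell type listed had a called interaction, which at 0.458% of all genes says little. The 6 T cell (median -1.73), 5 B cell (-0.646) and 5 erythroid markers (-0.355) had negative values only. The 5 Schwann cell (0.705) and 4 hepatocyte markers (3.4) had positive values only. The other lists of more than 2 tested markers held both signs. Marker sums were low for T cells, B cells and hepatocytes, with medians of 1.39, 2.31 and 0.42 CPM. What this says about cell numbers was not tested.

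Further genes of secretion, structure and defence were named by their adjusted p. Kng2, a kininogen, was at 51 to 74.3 CPM (66.9) in Ctrl_RT, 122 to 178 (137) in Ctrl_CE, 118 to 165 (139) in MetR_RT and 161 to 189 (173) in MetR_CE, so that Ctrl_RT lay below all others (interaction -0.85 ± 0.12, adjusted p = 0.000279). Anxa2, a calcium-dependent membrane protein, had medians of 134.5, 323, 263.3 and 264.1 CPM in the same order, and Ctrl_CE at 162 to 391 overlapped with every group (-1.01 ± 0.21, adjusted p = 0.0163; adjusted p = 0.0543 without the 6 muscle-rich libraries). Serpina3c, a serine protease inhibitor of a multigene cluster whose reads the counting may have split, fell from 3.45 to 0.874 CPM on Ctrl and stood at 0.979 and 0.685 on MetR (1.80 ± 0.39, adjusted p = 0.0196). It was the 1 called gene of 19 of complement and acute phase, a list with a median interaction of 0.32. In that list 13 members were called lower on MetR at 22 °C and 8 at 4 °C, against 1.98% and 1.21% of all genes.

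Cold raised Hsp90aa1, the inducible cytosolic HSP90 chaperone, 2.71-fold on MetR and 1.42-fold on Ctrl, where it was not called. Its level was 176 to 513 CPM (276.9) in Ctrl_RT, 345 to 517 (425) in Ctrl_CE, 195 to 262.2 (213) in MetR_RT and 517 to 750 (586) in MetR_CE. MetR_CE lay above MetR_RT in every library, and the Ctrl groups overlapped. The cold effect was 1.44 ± 0.15 on MetR and 0.51 ± 0.15 on Ctrl, with an interaction of 0.93 ± 0.21 (adjusted p = 0.0278). Of 17 chaperones and cold-inducible RNA-binding proteins it alone was called (median 0.01). Mark1, a kinase of microtubule-associated proteins, was at medians of 7.34 and 7.46 CPM on Ctrl and rose from 5.71 to 9.83 on MetR (interaction 0.67 ± 0.14, adjusted p = 0.0149; adjusted p = 0.0518 without the 6 muscle-rich libraries). Mapt, the microtubule-associated protein tau, was lowered by cold on Ctrl, from 109 to 60.7 CPM, and stood at 80.8 and 77.2 on MetR (0.84 ± 0.14, adjusted p = 0.0045).

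Serpine2 and Mpped2 had cold effects of opposite sign on the diets. Serpine2, an inhibitor of thrombin and plasminogen activators, was at 11.9 to 24 CPM (15.1) in Ctrl_RT, 11.3 to 15.6 (11.9) in Ctrl_CE, 7.04 to 11.7 (8.54) in MetR_RT and 10.7 to 19.3 (14.7) in MetR_CE, with a called rise on MetR (0.73 ± 0.13) and no call on Ctrl (-0.36 ± 0.13). Mpped2, a metallophosphodiesterase, was called lower in the cold on Ctrl (-1.23 ± 0.24) and higher on MetR (0.72 ± 0.25), at medians of 1.87 and 0.894 and of 0.841 and 1.44 CPM. Their interactions were 1.09 ± 0.19 (adjusted p = 0.0045) and 1.95 ± 0.34 (adjusted p = 0.0047).

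Other negative genes named by their adjusted p were Pimreg, 6820408C15Rik, BC028528, Gm32389, Akr1b8 and Pdss1, with interactions from -1.56 (Pimreg) to -0.60 (Akr1b8). Pimreg, a gene of mitotic cells, went from a median of 0.495 to 7.1 CPM on Ctrl and from 1.89 to 7.45 on MetR, while none of 15 proliferation genes had a called interaction (median -0.09). Pdss1, which makes the side chain of coenzyme Q, went from 9.83 to 23.8 and from 11.1 to 17.3. Cold thus raised both on Ctrl and, less, on MetR. The call of Pdss1 was lost without Ctrl_RT 4 (-0.56, against -0.63 ± 0.12 with all libraries), and that of Akr1b8 without Ctrl_RT 4, MetR_RT 5, Ctrl_CE 6 or MetR_CE 6 (values from -0.65 to -0.53 over the 27 repeats).

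**Figure D3:**
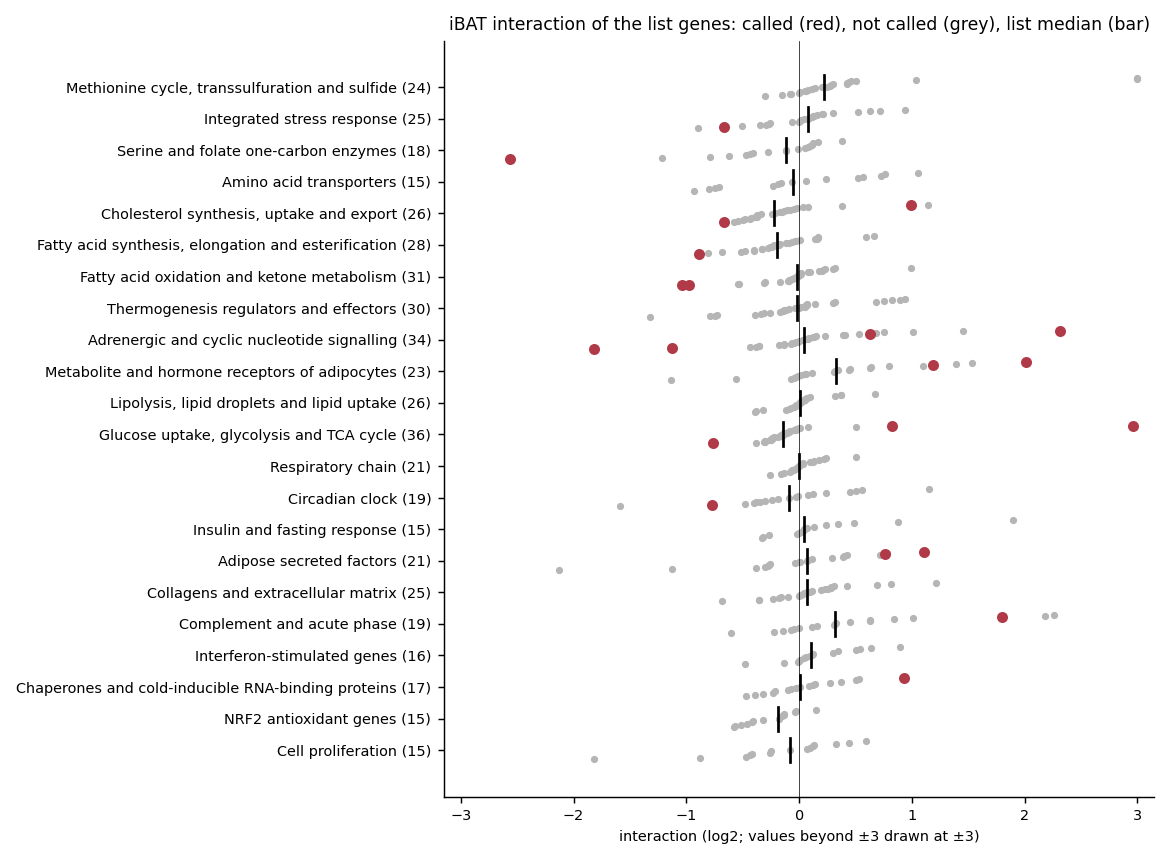
Log2 interaction (x) of the members of 22 gene lists (y); each point is a tested gene, coloured where the interaction was called, and the bar is the list's median. The list medians run from -0.225 to 0.324, beside 0.031 for all genes, and 2 genes beyond the axis are drawn at its end.

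Collagens with extracellular matrix genes, and macrophage markers, had called diet effects at both temperatures and no called interaction. Of 25 collagens and extracellular matrix genes, 13 were called lower on MetR at 22 °C and 13 at 4 °C, against 1.98% and 1.21% of all genes. None had a called interaction (median 0.07), which at 0.458% of all genes says little about a list of 25. Col1a1, a chain of type I collagen, was at medians of 153 and 76.8 CPM on Ctrl and of 46.9 and 29.4 on MetR at RT and CE, with an interaction of 0.31 ± 0.39 (adjusted p = 0.814). Macrophage markers likewise were called lower on MetR in 5 of 8 at 22 °C and in 7 of 8 at 4 °C, with a median interaction of -0.24. The interaction was called in 0 of 16 interferon-stimulated genes (median 0.1), 0 of 15 genes of insulin and fasting (0.04) and 0 of 15 NRF2 antioxidant genes (-0.18). No interferon-stimulated gene and no gene of insulin and fasting was called for diet at either temperature. Of the NRF2 genes, 4 were called higher on MetR at 22 °C and 0 at 4 °C. In the last list 1 of 15 genes had a positive value, and Srxn1, which repairs oxidized peroxiredoxins, passed the p threshold with -0.57 ± 0.11 (adjusted p = 0.0085).

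Promoters of called genes were searched for a set of short motifs, as a description of what the genes share. RefSeq promoters (GRCm38.p6, 250 bases before to 50 after the start) matched 72 of the 110 genes, with 101 promoters in all, and both strands were read. The E-box CACGTG, read by clock and bHLH factors, was in 8.06% of 62 promoters of positive genes, 7.69% of 39 of negative genes 7.15% of 32851 promoters of all genes and 8.86% of the 17329 promoters of genes tested. The core of the ATF4 element, TGATGNAA, was in 4.84%, 7.69%, 3.97% and 2.5%. The CRE TGACGTCA, the sterol element TCACNCCAC and TAGGTCA, a site of REV-ERB and ROR monomers, were in none of the promoters of called genes, against 1.79%, 1.24% and 2.61% of all promoters and 2.62%, 1.2% and 2.11% of those of genes tested. Of the called genes described here, Ppa1, B3galt2, Hsd17b7 and Sorl1 held the E-box and Asns and Got1 the ATF4 core. Of the genes without a call, Fgf21 held both motifs, Gdf15 the E-box, Dio2 the CRE and Hmgcs1 the sterol element. A motif match is a description only.
The promoters of Ppa1 (chr10:61648371-61648670, plus strand), Asns (chr6:7693160-7693459, minus strand) and Got1 (chr19:43524556-43524855, minus strand) are shown 5′ to 3′ along the gene, one with the E-box and both with the ATF4 core, with the motif in capitals; in Got1 it lies on the opposite strand.
Ppa1: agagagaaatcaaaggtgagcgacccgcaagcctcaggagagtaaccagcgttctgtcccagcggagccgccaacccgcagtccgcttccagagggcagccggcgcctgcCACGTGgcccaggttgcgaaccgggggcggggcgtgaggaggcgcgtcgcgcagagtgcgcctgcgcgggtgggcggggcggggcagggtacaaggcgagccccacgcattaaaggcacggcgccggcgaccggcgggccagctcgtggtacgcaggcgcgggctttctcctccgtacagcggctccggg
Asns: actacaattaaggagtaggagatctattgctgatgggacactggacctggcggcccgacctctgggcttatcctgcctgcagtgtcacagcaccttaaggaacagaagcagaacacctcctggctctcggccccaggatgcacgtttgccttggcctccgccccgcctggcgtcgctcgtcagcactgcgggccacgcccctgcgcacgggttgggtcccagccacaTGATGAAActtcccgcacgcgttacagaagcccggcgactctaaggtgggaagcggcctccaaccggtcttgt
Got1: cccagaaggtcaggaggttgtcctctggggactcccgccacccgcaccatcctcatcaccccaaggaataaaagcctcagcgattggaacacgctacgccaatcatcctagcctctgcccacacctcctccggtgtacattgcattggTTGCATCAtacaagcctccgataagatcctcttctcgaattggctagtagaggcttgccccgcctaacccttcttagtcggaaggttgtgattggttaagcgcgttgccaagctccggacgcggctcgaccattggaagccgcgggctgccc

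The same interaction was set against that in inguinal white fat (iWAT) in 26 mice with both depots, with the mouse as a block. The difference between depots was called in 469 of 23165 genes (2.02%). Of the 110 genes called in iBAT 16 were called for the difference, a share that the choice of the genes on iBAT values raises and from which nothing is read. The positive genes had a median interaction of 1.02 in iBAT and 0.375 in iWAT, and the negative genes of -0.837 and -0.486. The same choice makes the iBAT medians larger in size, so the smaller iWAT medians are not read as a weaker interaction there.

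Cpt1a and Fdft1 differed most clearly. The interaction of Cpt1a was -0.98 in iBAT and 0.77 ± 0.28 in iWAT, a difference of -1.86 ± 0.26 (adjusted p = 0.000319). For Fdft1 it was 0.99 in iBAT and -0.70 ± 0.26 in iWAT, a difference of 1.76 ± 0.23 (adjusted p = 0.000172). Both differences were called under all 3 other fits, as was that of Car3 (1.81 ± 0.40, adjusted p = 0.0114), whereas those of Tlr5 (1.62 ± 0.44), Acss3 (0.80 ± 0.18) and Akr1b8 (-0.68 ± 0.19) were called here and in 2, 1 and 1 of the 3.

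For other genes no difference between depots was called. Adcy5 had an interaction of 1.93 ± 0.41 in iWAT (difference 0.15 ± 0.42, adjusted p = 0.928), Hcar2 of 1.44 ± 0.34 (0.35 ± 0.45, adjusted p = 0.791) and Nr1d1 of -0.67 ± 0.21 (-0.11 ± 0.18, adjusted p = 0.837). Among genes without a call in iBAT, Gdf15 (difference -4.62 ± 0.88, adjusted p = 0.0046) and Fasn (1.61 ± 0.34, adjusted p = 0.0084) had a called difference, with iWAT interactions of 3.82 ± 0.82 and -1.47 ± 0.38.

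**Figure D4:**
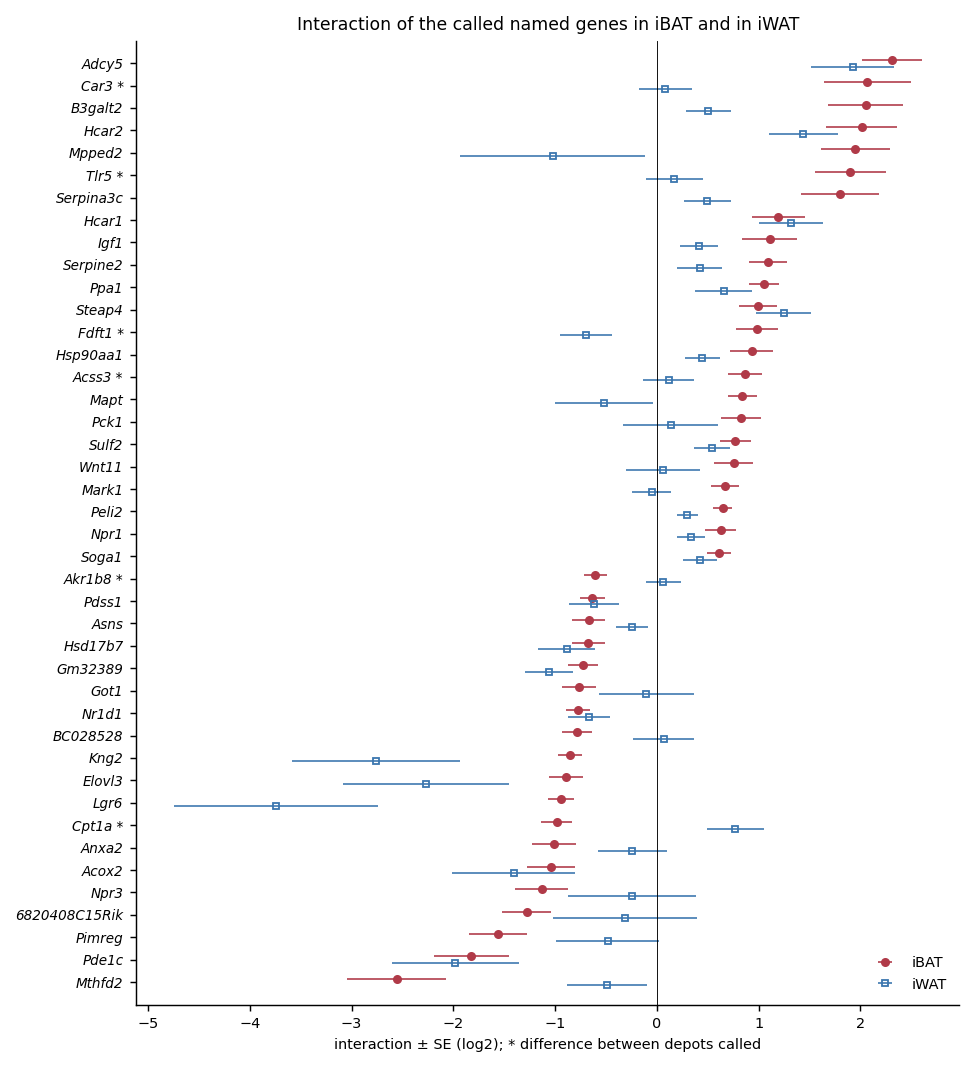
Log2 interaction with its SE in iBAT and in iWAT for 42 named genes called in iBAT (y: genes; x: log2 interaction); asterisks mark a called difference between depots. Cpt1a and Fdft1 lie on opposite sides of 0 in the depots.

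Left without Ctrl_CE 5, the interaction was called in 89 of 23915 genes (0.372%), 59 positive and 30 negative, of which 80 were among the 110. Of the 44 named genes called with all libraries 40 stayed called, and Asns, Pck1, Igf1 and Wnt11 did not. Adcy5 (2.27), Lgr6 (-0.97), Cpt1a (-1.01) and Mthfd2 (-2.56) hardly moved. Over all 27 repeats without 1 library, the number of genes called ran from 53, without Ctrl_RT 4, to 209, without Ctrl_CE 4.

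**Figure D5:**
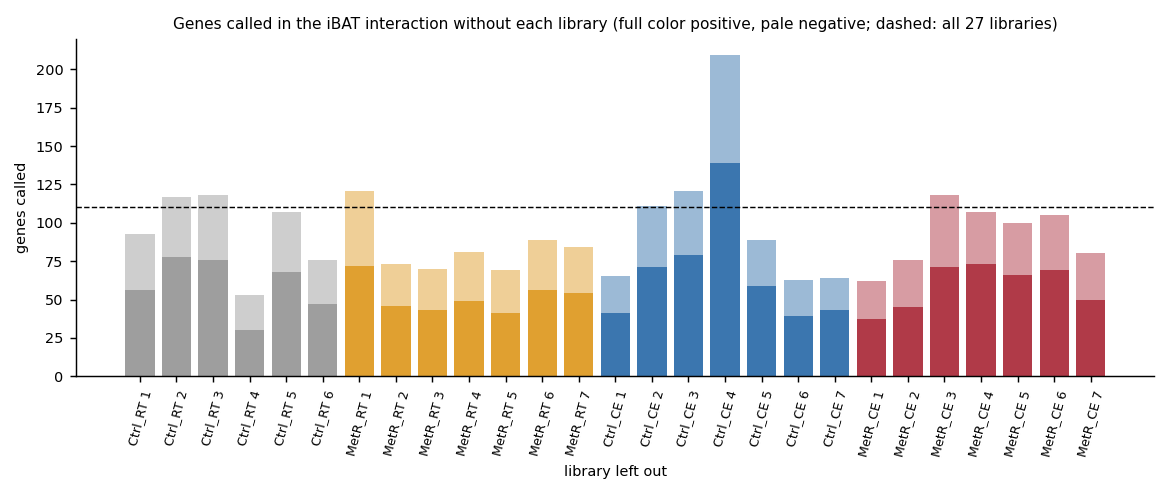
Number of genes with a called interaction (y) after leaving out each of the 27 libraries in turn (x, by group and replicate); the dashed line marks the 110 called with all. Counts run from 53 to 209.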

How the data were processed

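PolyA-selected RNA of iBAT was sequenced as paired reads. For each gene of mm10, the authors deposited raw whole-number counts. The submitters' notes name STAR 2.7.9a, featureCounts 2.0.3 and Salmon 1.9.0, and the table is named as made with Salmon, whose estimates need not be whole, so the counting step is uncertain. Columns were matched to samples by library name (0 left unmatched), and groups were taken from titles. Symbols matched 51948 of 56884 identifiers (91.3%).

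Genes with at least 10 counts over the 27 libraries were fitted in edgeR 4.0.16 (R 4.3.3; TMM, quasi-likelihood without robust estimation) with diet, temperature and their interaction; adjusted p are Benjamini-Hochberg. The SE of a log2 value is its size over the square root of F. Alternatives used other factors, filters, DESeq2 1.42.0, apeglm 1.24.0, limma 3.58.1 (voom), tag groups, a replicate block, a muscle covariate and fewer libraries; leaving out 6 libraries rich in muscle markers was added after seeing the data. Genes were named by this rule: the 15 called genes of smallest adjusted p per direction with a symbol and a mean of at least 1 CPM, every called list member, and 20 fixed genes; 2 called genes that it names are not reported here. Members and lists were chosen with earlier results of these data known. Simulated counts (23213 genes) used the Ctrl_RT means in every group and fitted dispersions, without cold, diet or muscle differences. In them 200 genes with a mean of at least 1 CPM were changed in MetR_CE only. The interaction recovered 86% of genes changed by a log2 of 1 and 99% of those changed by 2, with 7 false calls. The real libraries vary in ways that this leaves out, so these figures need not hold for them. For the difference between depots (22932 genes) the figures were 64%, 95% and 10, with the second depot drawn from the same iBAT means and without an effect of the mouse. Total counts ran from 12672686 to 31232349, and the SE carry both this depth and the spread between libraries of a group.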

Additional observations from a re-analysis of the deposited data

Results flagged for a closer look

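By Dixon's test, 1 library lay far from the rest in 34 groups of values for named genes and marker sums. The 304 groups examined include those of genes not reported here, which the 34 leave out. Chance gives such a library in about 1 in 20 groups of normally spread values, and CPM need not be so spread. Ctrl_CE 2, Ctrl_CE 4 and MetR_RT 1 held 4 each, and Ctrl_CE 3, Ctrl_RT 1 and Ctrl_RT 5 held 3 each. All levels here are normalized CPM.

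In Ctrl_CE 4, a library whose omission raised the number of called genes to 209, Peli2 stood at 38.8 (next 34.2) and Acss3 at 66 (next 41), the neutrophil and mast cell sum at 28.4 (next 3.81) and the hepatocyte sum at 2.93. Ctrl_CE 3 was highest for Tlr5 (3.47), Cpt1a (84.2, next 62.8) and Lep (16, next 7.03). Ctrl_CE 5 was highest for Fgf21 (6.73, next 3.88) and Gdf15 (5.24, next 2.93), and Ctrl_CE 2 for Igf1 (11) and for the T cell (6.26), B cell (6.38) and erythroid (184) sums.

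At 22 °C on Ctrl, Hcar2 was lowest in replicate 6 (2.66, next 5.67). Replicate 1 was highest for BC028528 (16.1), Bmp8b (18.1, next 6.99) and Nnmt (21.5, next 11.3), replicate 2 for Gdf15 (0.688), replicate 3 for Anxa2 (195), replicate 4 for Igf1 (20.6, next 12.4) and Wnt11 (14.3), and replicate 5 for Dbp (10.1) and for the macrophage (153) and hepatocyte (46.3, next 3.63) sums. On MetR at 22 °C, replicate 1 was highest for Car3 (224), BC028528 (20.5), Hcar1 (22.5) and the pericyte and smooth muscle sum (691), replicate 5 for Akr1b8 (18.5), replicate 6 for the T cell sum (3.47) and replicate 7 for the Schwann cell sum (82.7). In MetR_CE, replicate 7 was lowest for the endothelial sum (841, next 911), replicate 2 highest for the fibroblast sum (131) and replicate 5 for the hepatocyte sum (2.59).

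The interaction differed between iBAT and iWAT, by the test of the difference, for 6 of the named genes called in iBAT. The difference (iBAT minus iWAT, log2) was 1.622 for Tlr5, 1.811 for Car3, -0.683 for Akr1b8, 0.795 for Acss3, 1.757 for Fdft1 and -1.863 for Cpt1a.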

How the results depend on the processing

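All of the 110 called genes that an alternative tested kept their sign under it, while the number called depended on the setting. The interaction was called in 124 genes with RLE factors (68 positive and 56 negative, 54.8% positive against 65.5%), 141 with filterByExpr (80 and 61), 98 without a filter, 87 with robust estimation, 147 with apeglm shrinkage, 104 with voom and 115 with a muscle covariate. With that covariate 105 of the calls were among the 110, and Pde1c, Npr3, Car3, Acss3, Acox2, Fdft1, Anxa2 and Mark1 stayed called. The interaction was called in 205 genes by DESeq2 without shrinkage (126 and 79) and in 1, Adcy5, when glmTreat tested against the fold threshold itself (752 genes at an unadjusted p under 0.05 there). Groups set by the treatment tag gave 2, Ppa1 and Mapt (2640 at an unadjusted p under 0.05), and leaving out the 3 libraries with such a tag gave 55 (24 positive and 31 negative, 45 among the 110). Leaving out the 6 libraries with muscle markers over 1000 CPM, a repeat chosen after seeing the data, gave 89 (48 and 41, with 48 among the 110), and 15 of the 44 named called genes lost their call with the 21 libraries left, among them Asns, Hsd17b7, Npr1, Pck1, Wnt11 and Gm32389. Without 1 library the number ran from 53 to 209, and it moved by over 1.5 times without Ctrl_RT 4 (53), MetR_RT 2 (73), 3 (70) or 5 (69), Ctrl_CE 1 (65), 4 (209), 6 (63) or 7 (64), or MetR_CE 1 (62). The cause was not tested.

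With the replicate number as a block, 80 genes were called, 70 of them among the 110, and the simple effects were called in 3326, 1959, 475 and 394 genes. The numbers only name mice: the 39 same-number pairs of libraries had a median correlation of deviations of 0.0426 (-0.628 to 0.607), and 4 of 27 libraries correlated best with their own number. The depot difference was called in 371 genes without the mouse block, 425 with voom and 465 without the mouse of Ctrl_CE 5.

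Of 780 values for the 60 named genes under 13 settings, 634 kept their direction and side of the threshold, 138 lost a call, 3 gained 1 and 5 changed sign. Calls were lost by Asns, Hsd17b7, Npr1, Npr3, Pck1, Igf1 and Hsp90aa1 with robust estimation, by Mthfd2, Asns and Hsd17b7 with voom, by Asns, Hsd17b7, Acox2, Npr1, Pck1, Wnt11 and Hsp90aa1 with the replicate block, and with apeglm by genes that included Car3 (0.08), Peli2 (0.58), Soga1 (0.53), Mark1 (0.57) and Npr1 (0.50). Those that changed sign were Dio2 (-0.24), Fasn (0.08) and Nnmt (-1.94) with tag groups, and Hmgcs1 (0.01) and Lep (0.35) without the 6 muscle-rich libraries. Without 1 library, signs also changed for Fasn (-0.12 to 0.01), Ppargc1a (-0.29 to 0.02), Cpt1b (-0.05 to 0.02), Phgdh (-0.46 to 0.02) and Lep (-0.60 to 0.05), none of them called.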

Other observations

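The genes of this paragraph were chosen after their values were seen, among the called genes outside the naming rule, and their levels are group means in normalized CPM. Acsm3, a mitochondrial enzyme that activates medium-chain fatty acids, followed the order of Acss3, with 53.7 and 7.477 on Ctrl and 64.87 and 19.69 on MetR at RT and CE (interaction 1.13 ± 0.28, adjusted p = 0.0367). Esr1, the oestrogen receptor alpha, was at 34.44 in Ctrl_RT and at 14.52, 18.55 and 13.24 in Ctrl_CE, MetR_RT and MetR_CE (0.77 ± 0.18, adjusted p = 0.031). Sorl1, a sorting receptor that acts on the insulin receptor in fat, was at 220.8 in Ctrl_RT and at 454.8, 448.7 and 561.2 in the others (-0.72 ± 0.18, adjusted p = 0.0367). Hspe1, the mitochondrial chaperone HSP10, was at 115.6 in MetR_RT and 176.6 in MetR_CE against 165.6 and 163.3 on Ctrl (0.63 ± 0.15, adjusted p = 0.0352). Tacr2, the neurokinin A receptor, rose in the cold from 0.3811 to 8.294 on Ctrl and from 0.5519 to 4.121 on MetR (-1.54 ± 0.39, adjusted p = 0.0438). The adjusted p are from the same edgeR quasi-likelihood test with Benjamini-Hochberg adjustment.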
